A study of Macaca mulatta with 10 samples.

Results

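The comparison described here is between testes taken after 96 h and after 48 h of gonadotropin infusion in juvenile male rhesus monkeys (Macaca mulatta, wild type). Its members are 7 of the 10 libraries of the series, chosen by the treatment label alone. Each library is the total RNA of 1 right testis, which was divided into fragments and snap frozen. The animals at 48 h were TP08, TP10 and TP12, aged 22, 14 and 15 months, and those at 96 h were TP15, TP16, TP17 and TP18, all 14 months old. All 7 received pulsatile intravenous FSH and LH. The 3 remaining animals received vehicle (TP07, TP09 and TP11, aged 24, 14 and 15 months), for a time not given in the sources used here. They entered the fit only to estimate the spread between animals, and their levels are given beside those of the gonadotropin animals. The series asks which genes accompany the commitment of undifferentiated spermatogonia to differentiation.

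The animal numbers divide in the same way as the groups, so a batch by animal number cannot be told apart from the longer infusion, and no 96 h animal was older than 14 months. As no animal gave more than 1 library, the tests below weigh differences against variation among animals. Total counts were 27824411 to 30375928 at 48 h and 21824233 to 27684954 at 96 h, at which 3 counts correspond to 0.0988 to 0.137 counts per 1e6 counts (CPM). The first principal component of the 7 libraries held 33.8% of the variance, with TP08 (-63.8) and TP12 (-48.3) at one end and TP17 (80.9) and TP15 (35.7) at the other. TP10 (-12.2) and TP16 (-4.87) lay next to each other, and TP18 was at 12.5. The labelled tissue carried its defining transcripts in each of the 7 libraries, with AMH of Sertoli cells at 697 to 1004 CPM, INSL3 of Leydig cells at 510 to 1066 CPM and DDX4 of germ cells at 31.4 to 59.6 CPM.

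In the juvenile primate testis the gonads are quiet because the pituitary releases little FSH and LH. The seminiferous cords hold immature Sertoli cells and spermatogonia, and the space between them holds few differentiated Leydig cells. FSH acts on Sertoli cells, and in many mammals it drives their division before puberty. LH acts on cells of the Leydig lineage and switches on steroid production. A dividing cell copies its DNA in S phase, making deoxynucleotides and histones for the new chromatin, and then separates the copies in mitosis with the spindle, kinetochores and condensin. Total RNA of a whole testis mixes all of these cells, and fewer cells of a type and less RNA per cell cannot be told apart in it.

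Between 48 and 96 h, 34 of 39 genes of mitosis, 26 of 52 symbols of replication-dependent histones and 4 of 8 enzymes of deoxynucleotide supply rose. The largest falls were in genes of no one fixed group, among them SLC35F2 and FSTL3. Of 26813 loci, 286 (1.07%) passed an adjusted p of 0.05 in edgeR's quasi-likelihood test, 219 (0.817%) higher and 67 (0.25%) lower at 96 h. Of these, 76.6% were higher, against 58.7% when counts were scaled to library totals alone. Where 1 locus stands for each of 14151 gene symbols, 179 (1.26%) were higher and 62 (0.438%) lower, and in all 241 the libraries at 48 h and 96 h did not overlap. Over all symbols, libraries did not overlap for 8.4% with 96 h higher and for 11.6% with 96 h lower (7.93% and 8.61% of all loci), and the median log2 fold change was -0.02. The called rises had a median log2 fold change of 0.97 and the called falls -0.62. Members of the gene groups and complexes examined made up 92 of the 179 higher symbols and 11 of the 62 lower ones. The share of all symbols in these groups was not counted, and the lists were chosen with earlier results known. These 2 counts therefore do not show whether calls gather in the groups. The number of calls depended on single animals. It was 2 loci without TP08, 9 without TP10, 6 without TP17, 106 without TP18, 174 without TP15 and 186 without TP12. All 286 kept their sign in each of these fits. Groups that do not overlap leave little room for a reversed sign, so the kept signs are no separate support. With age as a covariate 95 loci were called.

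**Figure D1:**
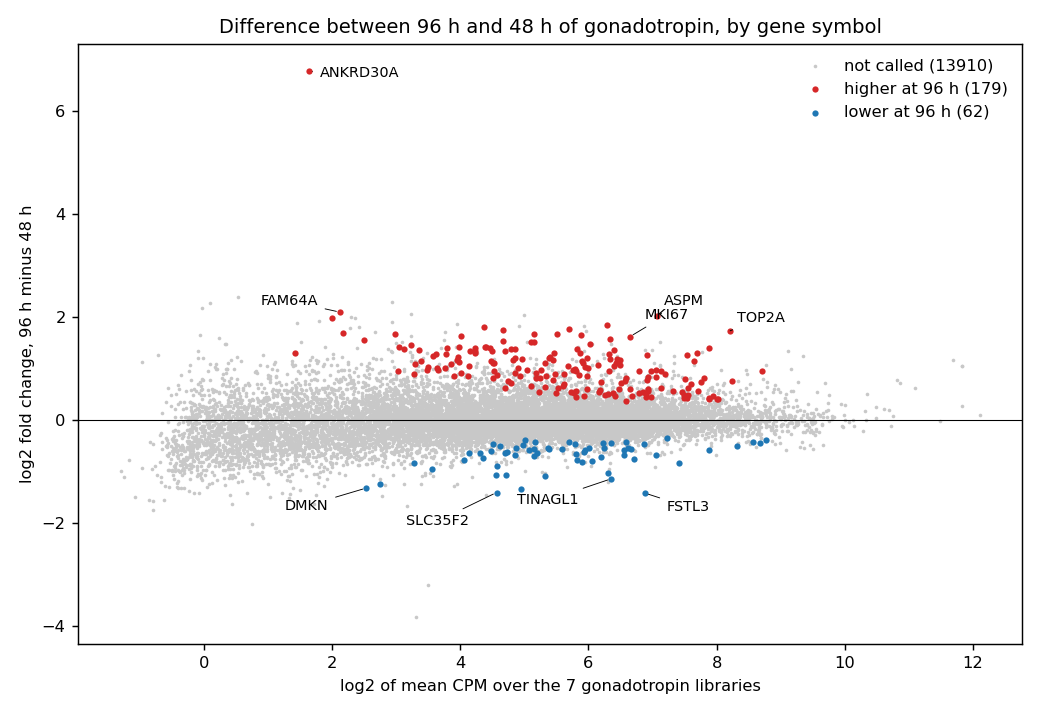
Log2 fold change of 96 h over 48 h (vertical axis) against the log2 of the mean CPM over the 7 gonadotropin libraries (horizontal axis), 1 point for each of 14151 gene symbols. The 179 symbols called higher at 96 h and the 62 called lower are coloured, and ANKRD30A stands apart from the rest at 6.76.

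Mitotic genes rose almost as a group. Of 39 measured genes of the mitotic list, 34 rose (87.2%, against 1.26% of all symbols) and none fell. The median log2 fold change was 1.23, and for 38 of them every 96 h animal lay above every 48 h animal. The summed level of the list was 977, 929.8 and 1476 CPM in TP08, TP10 and TP12, and 2668, 2905, 3151 and 2777 CPM in TP15 to TP18. The vehicle animals TP07, TP09 and TP11 had 758.9, 747.1 and 1083 CPM. TP12 was the highest 48 h animal for 38 of the 39 genes, and all 4 animals at 96 h lay above it in the sum.

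MKI67, the proliferation antigen found in cycling cells (9:124197684-124242638, rheMac8), was at 31.9, 42.6 and 63.6 CPM in TP08, TP10 and TP12 and at 146, 155, 154 and 109 CPM in TP15 to TP18. The 4 later animals were all above the 3 earlier ones, with means of 46.0 ± 16.1 (SD, n = 3) and 141 ± 21.6 (SD, n = 4). The log2 fold change was 1.61 ± 0.30 (SE), with an adjusted p of 0.0397 in edgeR. TOP2A, the topoisomerase that untangles replicated DNA (16:46212392-46248878), was at 97.0, 100.4 and 186 CPM at 48 h and at 384, 430, 476 and 402 CPM at 96 h, a log2 difference of 1.73 ± 0.31 (edgeR adjusted p 0.0347). CDK1, the kinase that starts mitosis (9:71940166-71961930), was at 19.4, 25.1 and 35.4 CPM and then at 70.2, 83.8, 96.9 and 80.2 CPM, a log2 difference of 1.64 ± 0.29 (edgeR adjusted p 0.0317). In both genes TP12 was the highest 48 h animal and still lay below every 96 h animal. In vehicle animals MKI67 was at 14.6, 21.7 and 33.2 CPM.

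The largest rises (mean log2 CPM of 1 or more) were mostly of this kind. ASPM, which focuses spindle poles (1:169711244-169776610), was at 40.4, 38.3 and 68.0 CPM at 48 h and at 177, 223, 231 and 163 CPM at 96 h, with a log2 difference of 2.02 ± 0.29 (edgeR adjusted p 0.0177). ANLN, an actin-binding protein of the cleavage furrow (3:72302714-72367644), was at 24.2, 28.6 and 42.1 CPM and then at 110, 109, 124 and 109 CPM, with a log2 difference of 1.83 ± 0.23 (edgeR adjusted p 0.0153). FAM64A (also called PIMREG), a gene of lower level, was at 0.911, 1.33 and 2.30 CPM and then at 7.75, 6.69, 5.92 and 5.53 CPM, a log2 difference of 2.09 ± 0.40 (edgeR adjusted p 0.0347). None of these 3 genes overlapped between the groups. UBE2C (1.80), which marks mitotic regulators for destruction, NUSAP1 (1.76), which bundles spindle microtubules, TROAP (1.68) and C1H1orf185 (1.97) were also among the 10 largest, and each was called. HMMR, a spindle and hyaluronan-binding protein (6:161526393-161561438), was the mitotic gene with the smallest adjusted p. It was at 16.4, 13.9 and 19.1 CPM and then at 39.7, 36.4, 40.9 and 35.5 CPM, a log2 difference of 1.21 ± 0.13 (edgeR adjusted p 0.00931), with narrow ranges in both groups.

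Complexes of the mitotic apparatus differed in how many of their subunits rose. All 4 measured subunits of the NDC80 complex, which ties kinetochores to microtubules, rose, with NDC80 at 1.39, NUF2 at 1.52, SPC24 at 1.62 and SPC25 at 1.52 on the log2 scale. All 4 of the chromosomal passenger complex rose, from 0.72 for its scaffold INCENP through 0.85 for the kinase AURKB and 1.23 for CDCA8 to 1.66 for BIRC5 (survivin). Both subunits of centralspindlin, which builds the midzone of the dividing cell, rose as well, RACGAP1 by 0.69 and KIF23 by 1.22, and RACGAP1 and AURKB share their loci with further identifiers. Of condensin, which compacts chromosomes, 4 of 7 subunits rose, including SMC4 (0.82) and NCAPD2 (1.14). Of 12 genes of cohesin and of sister chromatid separation 6 rose, ESCO2, CDCA5, SGOL1, SGOL2, ESPL1 and PTTG1, which act on cohesin or control its release. The ring subunits SMC1A, SMC3 and RAD21 had log2 fold changes of 0.02, 0.07 and 0.20 and did not pass. Centromere proteins gave 8 of 18, the spindle checkpoint 2 of 5 and the kinesin family 9 of 41, and none of the genes in these complexes fell. Of all symbols 1.26% rose and 0.438% fell. Many of the risen subunits, such as NDC80, NUF2, BIRC5 and ESPL1, are also members of the mitotic list. KIF23 is counted both in centralspindlin and among the kinesins. The counts by complex are therefore not separate from the result for the mitotic list.

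The 5 mitotic genes that did not pass were CCNB1, BUB1, AURKA, KIF2C and CIT. CCNB1, the cyclin partner of CDK1, had a log2 fold change of 1.19 with an edgeR adjusted p of 0.0512 and groups that did not overlap, and AURKA, a kinase of spindle poles, was at 0.25 with an adjusted p of 0.406 and overlapping groups. How many of the 39 passed depended on single animals, being 0 without TP08, 1 without TP10, 1 without TP17 and 15 without TP18, against 23 to 35 when each of the others was left out. The median log2 fold change was 1.14 to 1.46 over those fits. Without both animals over 20 months 0 passed, with a median of 1.20, and with age as a covariate 16 passed, with a median of 1.19. Among 14-month animals alone, TP10 is the single 48 h animal and TP09 the single vehicle animal. The spread there comes from the 96 h animals alone, so only the median, 1.54, is given.

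**Figure D2:**
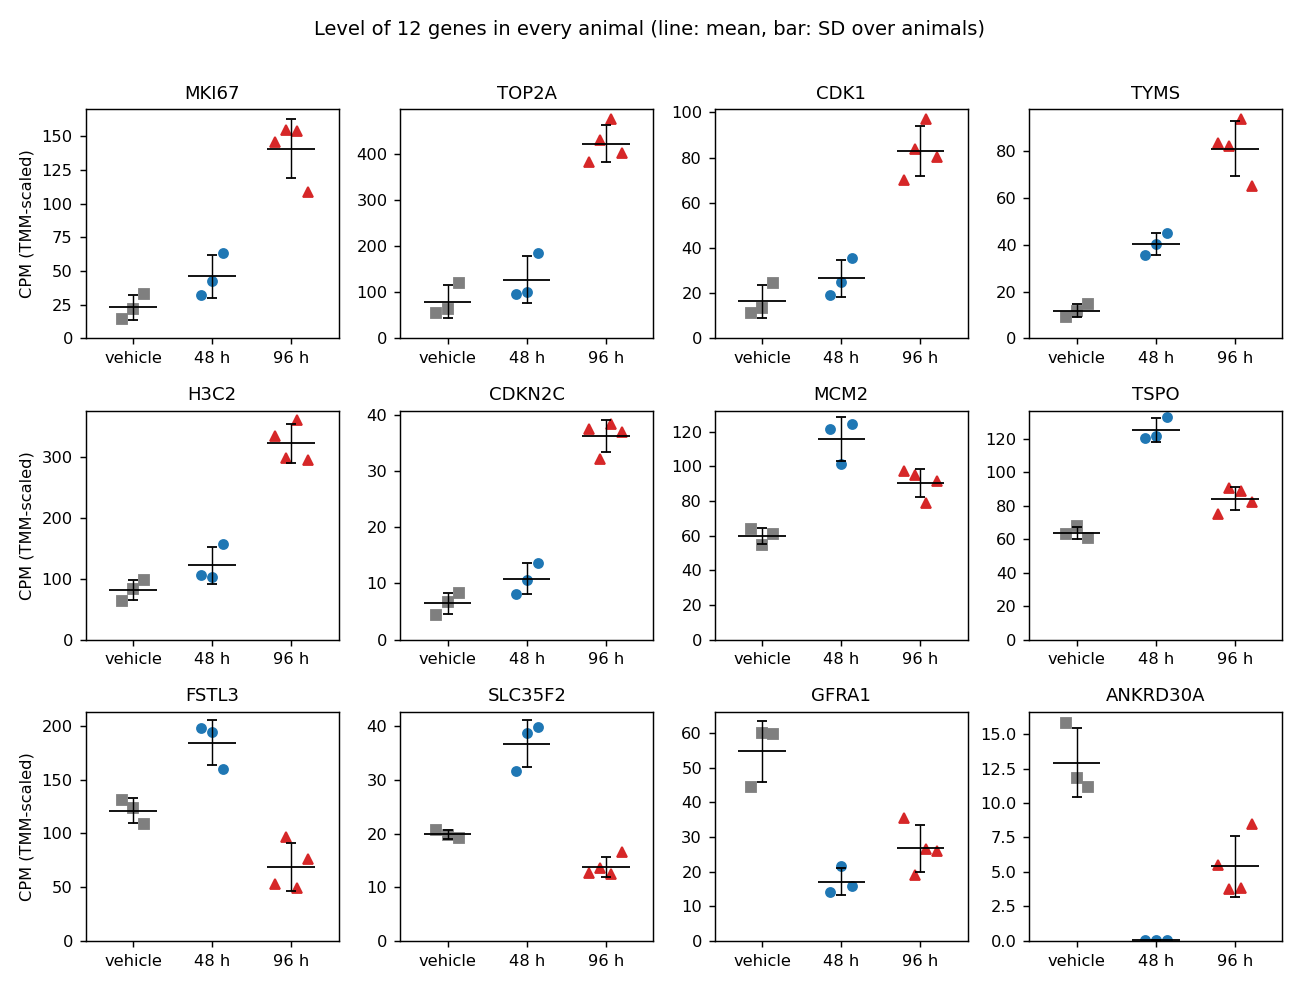
CPM of 12 genes in each of the 10 animals (points), by group on the horizontal axis, with the group mean as a line and the SD as a bar. MKI67, TOP2A, CDK1, TYMS, H3C2 and CDKN2C are higher in all 4 animals at 96 h than in the 3 at 48 h, TSPO, FSTL3 and SLC35F2 are lower, and GFRA1 overlaps between the groups.

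The enzymes that supply thymidylate and deoxynucleotides rose in part. Of 8 measured, 4 rose (1.26% of all symbols did), among them TYMS, DCK and RRM2, with a median log2 fold change of 0.81 for the list. TYMS, which makes thymidylate (18:8832709-8848837), was at 35.7, 40.4 and 45.2 CPM at 48 h and at 83.5, 82.1, 93.6 and 65.2 CPM at 96 h, all 4 above the earlier 3. Its log2 fold change was 1.00 ± 0.17 (edgeR adjusted p 0.0261), and vehicle animals had 9.05, 11.7 and 14.8 CPM. RRM2, the regulated subunit of ribonucleotide reductase, was at 49.3, 43.6 and 58.3 CPM and then at 113, 123, 126 and 97.3 CPM, with a log2 difference of 1.19 ± 0.23 (edgeR adjusted p 0.0438). DCK, which salvages deoxycytidine, rose by 1.04 on the log2 scale. TK1, the thymidine kinase of S phase, was at 7.62, 8.01 and 11.3 CPM and then at 22.0, 19.5, 21.2 and 18.9 CPM but did not pass (edgeR adjusted p 0.0637). None of the 8 passed without TP08, TP10 or TP17, or with age as a covariate. Without TP12, TP15 or TP18 1 passed, and without TP16 2 passed.

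The replication machinery itself gave no calls at 96 h against 48 h. Of 31 measured genes 0 passed in edgeR's quasi-likelihood test, although 9 had an unadjusted p under 0.05 and DESeq2 called 3 (CDC6 and POLE higher, MCM2 lower), with a median log2 fold change of 0.08. Of the 31 estimates 21 were above 0. For 7 genes, among them CDC6, CDC45 and POLE, every 96 h animal lay above every 48 h animal (8.4% of all symbols). For 1 gene, MCM2, every 96 h animal lay below (11.6% of all symbols). The summed level was 1724, 1369 and 1627 CPM at 48 h and 1534, 1726, 1647 and 1689 CPM at 96 h. These sums overlapped, and those of vehicle animals were 963.6, 876.2 and 1015 CPM. MCM2, a subunit of the replicative helicase (2:48698788-48722919), was at 121, 101 and 125 CPM and then at 97.3, 94.9, 79.1 and 91.4 CPM, a log2 difference of -0.35 ± 0.10 (edgeR adjusted p 0.113). The 3 animals at 48 h were above the 4 at 96 h. MCM6 of the same helicase was at 117, 94.2 and 102 CPM and then at 96.4, 115, 106 and 107 CPM, a log2 difference of 0.02 ± 0.10 (edgeR adjusted p 0.915), with overlapping groups. POLA1, of the polymerase that starts new strands, was at 140, 117 and 141 CPM and then at 129, 168, 170 and 157 CPM (log2 fold change 0.23 ± 0.11). All 6 helicase subunits lay between -0.35 and 0.02, while mitotic genes had a median of 1.23. Origin recognition and loading factors (0 of 9), GINS and CDC45 (0 of 5) and the clamp loader (0 of 5) also gave no calls.

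Histone genes rose beside the mitotic genes. Of 52 symbols of replication-dependent histones 26 rose (1.26% of all symbols did) and none fell. Their median was 0.95 on the log2 scale, and 50 of the 52 estimates were above 0. Some pairs, such as H2AC8 and HIST1H2AE, are a newer and an older name of the same human gene, and H2BC20P is named as a pseudogene. Distinct genes may therefore be fewer than the 52 symbols. The libraries did not overlap for 41 of them, with 96 h higher, against 8.4% of all symbols. HIST1H1T (-0.46), HIST3H2A (-0.08) and HIST3H3 (-0.37) are counted neither among the 52 nor among the replacement histones below. Their estimates were below 0 and did not pass. HIST1H2AD, an H2A gene (4:26780798-26784438), was at 90.8, 92.8 and 127 CPM at 48 h and at 249, 222, 267 and 251 CPM at 96 h, with a log2 difference of 1.26 ± 0.13 (edgeR adjusted p 0.00931). H3C2, an H3 gene, was at 106, 104 and 158 CPM and then at 335, 299.5, 362 and 295 CPM, with a log2 difference of 1.40 ± 0.18 (edgeR adjusted p 0.0153). In each, TP12 was the highest of the 48 h animals and below all animals at 96 h, as it was the highest 48 h animal for 49 of the 52 genes. Vehicle levels were 78.2, 97.0 and 90.8 CPM for HIST1H2AD and 63.8, 83.0 and 97.9 CPM for H3C2. HIST1H2AJ rose by 1.50, HIST2H2AB by 1.11, HIST1H1A by 0.96 and HIST1H3D by 0.69 on the log2 scale.

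Of 10 replacement histones, which are made outside S phase as well, 2 rose. H2AFZ, which marks promoters, was at 141, 129 and 148 CPM and then at 207, 191, 227 and 188 CPM, a log2 difference of 0.54 ± 0.09 (edgeR adjusted p 0.0271). H2AFX, the variant that is phosphorylated at DNA breaks, rose by 1.16. Many histone genes are near-identical copies, so the value of a single one is uncertain, and replication-dependent histone mRNAs end without a poly(A) tail, which total RNA libraries still hold. The number of the 52 that passed was 0 without TP08, 1 without TP10, 1 without TP17, 15 without TP15 or TP18, 25 without TP16 and 33 without TP12, with medians of 0.83 to 1.17. With age as a covariate 15 passed.

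**Figure D3:**
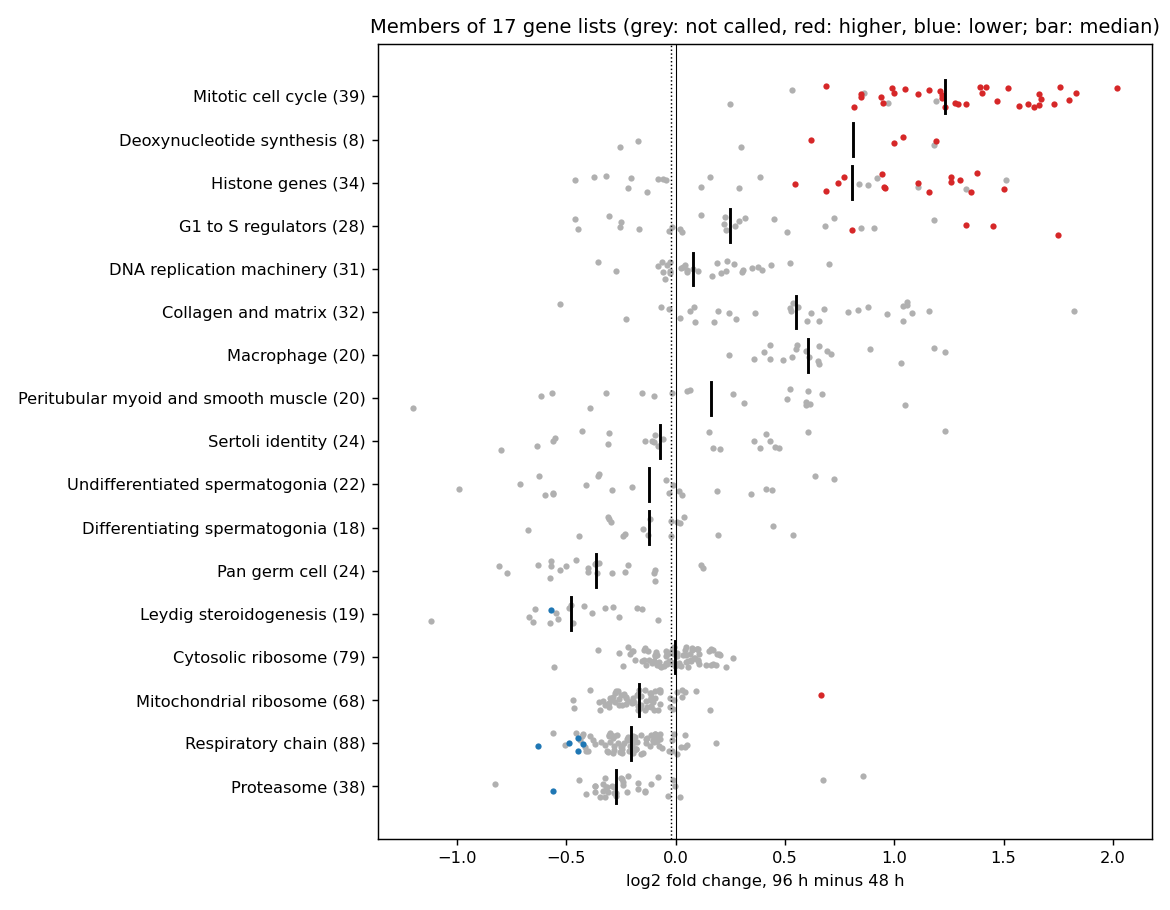
Log2 fold change of 96 h over 48 h (horizontal axis) for the measured members of 17 gene groups, 1 point per gene, with the group's median as a bar and the median of all symbols as a dotted line. Mitotic genes (median 1.23) lie to the right of 0 throughout, and the Leydig cell group (median -0.48) lies to the left throughout.

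Among 28 regulators of entry into S phase, 4 rose (CDKN2C, FOXM1, E2F7 and MYBL2), against 1.26% of all symbols, and the list's median was 0.25. CDKN2C, an inhibitor of the G1 kinases CDK4 and CDK6 (1:50525788-50532568), was at 8.09, 10.7 and 13.6 CPM at 48 h and at 37.5, 32.1, 38.3 and 37.0 CPM at 96 h. All 4 later animals lay above all 3 earlier ones and above the vehicle animals, which had 4.46, 6.63 and 8.24 CPM. The log2 fold change was 1.75 ± 0.22 (edgeR adjusted p 0.0153), the largest of this list. FOXM1, the transcription factor of G2 and mitosis genes, was at 7.72, 7.07 and 13.6 CPM and then at 27.2, 23.8, 21.5 and 22.8 CPM, a log2 difference of 1.33 ± 0.22 (edgeR adjusted p 0.0261). E2F7, a repressor of the E2F family, rose by 1.45 and MYBL2, a partner of FOXM1, by 0.81. CCNE2, a G1 cyclin, was at 0.91 (edgeR adjusted p 0.0565) and CDC6, which loads the helicase, at 0.70 (edgeR adjusted p 0.0691), and neither passed.

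Loci next to 2 of these genes gave like values. On the strand of CDKN2C, the locus of LOC106998536 begins 2790 bases beyond CDKN2C and ends 1662 bases before C1H1orf185, and its log2 fold change was 1.70, against 1.75 for CDKN2C and 1.97 for C1H1orf185. On the strand of CDK1, a locus without a name (XLOC_034799, 9:71937669-71940101) lies 65 bases away and had 1.76, against 1.64 for CDK1. Such neighbours may be parts of 1 transcript, so they are not counted as separate genes. Of 31 called loci without a symbol on assembled chromosomes, 4 lay within 10 kb of a called symbol on the same strand (12.9%, against 0.448% of 10489 such loci).

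Other genes that rose stand in none of the gene groups examined, and those named here were picked after their values were seen. ZGRF1, a DNA helicase of genome repair, was at 27.0, 25.6 and 30.3 CPM at 48 h and at 43.1, 52.8, 54.5 and 50.2 CPM at 96 h, with a log2 difference of 0.86 ± 0.11 (edgeR adjusted p 0.0153). ROBO2, a receptor of SLIT ligands (2:736117-2183746), was at 23.9, 25.8 and 29.6 CPM and then at 51.7, 40.8, 47.5 and 46.0 CPM, with a log2 difference of 0.82 ± 0.12 (edgeR adjusted p 0.0157). RORA, a nuclear receptor, was at 81.4, 79.8 and 71.1 CPM and then at 110, 113, 133 and 114 CPM, a log2 difference of 0.60 ± 0.09 (edgeR adjusted p 0.0157). None of the 3 overlapped. Several more belong to the cell cycle, such as the phosphatases CDC25B (1.17) and CDC25C (1.01), the chromatin protein HMGB2 (1.06), the nuclear lamin LMNB1 (0.50), the kinase PBK (1.33) and STMN1 (0.74), which takes microtubules apart.

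Leydig cell genes as a list were lower at 96 h than at 48 h in their estimates, but 1 of 19 passed. The median log2 fold change was -0.48, 0 of 19 estimates were above 0, and the groups did not overlap for 4, all lower at 96 h (11.6% of all symbols). The summed level was 3036, 2965 and 2498 CPM at 48 h and 2212, 2294, 2050 and 1879 CPM at 96 h, without overlap, beside 635.3, 638.8 and 793.3 CPM in vehicle animals. TSPO, a protein of the outer mitochondrial membrane linked to cholesterol import (10:85296327-85308651), was the gene that passed. It was at 121, 122 and 133 CPM and then at 75.4, 90.6, 89.0 and 82.6 CPM, with a log2 difference of -0.57 ± 0.08 (edgeR adjusted p 0.0157). Its vehicle levels were 63.3, 67.7 and 60.9 CPM. No gene of the list passed without TP08, TP10 or TP17, or without both animals over 20 months, where the median was -0.32.

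The steroid enzymes varied widely between animals. STAR, which brings cholesterol to the inner mitochondrial membrane (8:38419816-38428667), was at 512, 465 and 281 CPM at 48 h and at 435, 233, 403 and 183 CPM at 96 h, so the groups overlapped. Its log2 fold change was -0.42 ± 0.41 (edgeR adjusted p 0.577), and its vehicle levels were 28.0, 27.4 and 9.40 CPM. CYP11A1, which makes pregnenolone from cholesterol, was at 236, 177 and 140 CPM and then at 98.6, 97.7, 180 and 87.0 CPM, a log2 difference of -0.67 ± 0.26 (edgeR adjusted p 0.191). CYP17A1, of the androgen pathway, was at 255, 249 and 183 CPM and then at 252, 198, 195 and 179 CPM, a log2 difference of -0.16 ± 0.17 (edgeR adjusted p 0.628). In STAR, TP15 and TP17 lay among the 48 h animals and TP16 and TP18 below them, and in CYP11A1 TP17 alone lay among the 48 h animals. INSL3, the peptide hormone of Leydig cells, was at 878, 1066 and 952 CPM and then at 687, 839, 510 and 712 CPM, without overlap but with an edgeR adjusted p of 0.378. LHCGR, the LH receptor, was at 35.0, 48.5 and 47.8 CPM and then at 30.2, 65.6, 22.0 and 25.4 CPM, with TP16 the highest of all 7. HSD3B2 (log2 fold change -0.57, edgeR adjusted p 0.114) has near-identical relatives and is uncertain. The 22 cholesterol synthesis and uptake genes gave no calls in edgeR or DESeq2, with a median of -0.09 and 0 at an unadjusted p under 0.05.

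FSTL3, a secreted binding protein of activins (19:450466-459032), was the most reduced of the called symbols. It was at 198, 194 and 160 CPM at 48 h and at 53.1, 96.5, 49.0 and 75.7 CPM at 96 h, with vehicle animals at 131, 124 and 109 CPM. All animals at 96 h were below all others, and the log2 fold change between the gonadotropin groups was -1.42 ± 0.21 (edgeR adjusted p 0.0157). Of the 13 activin, inhibin and follistatin genes it alone passed. INHBB, a subunit of activin B and inhibin B, was at 169, 137 and 146 CPM and then at 75.6, 115, 79.5 and 118 CPM, without overlap and with an edgeR adjusted p of 0.113. INHA, the alpha subunit of inhibins, was at 981, 671 and 764 CPM and then at 541, 585, 492 and 581 CPM (edgeR adjusted p 0.0729), also without overlap. INHBA, the subunit of activin A, was at 35.9, 68.4 and 49.4 CPM and then at 115, 43.2, 112 and 110 CPM, where TP16 fell among the 48 h values (edgeR adjusted p 0.191).

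Of the IGF system, PAPPA, a protease that cleaves IGF-binding proteins, fell, and the other 17 genes did not pass. PAPPA was at 86.5, 58.8 and 68.5 CPM at 48 h and at 40.2, 45.8, 46.2 and 46.7 CPM at 96 h, a log2 difference of -0.67 ± 0.13 (edgeR adjusted p 0.0375). IGF1, the growth factor, was at 394, 848 and 576 CPM and then at 1292, 556, 1121 and 538 CPM, with TP15 and TP17 high and overlapping groups (edgeR adjusted p 0.507). IGFBP3, a carrier of IGF1, was at 42.0, 88.3 and 47.5 CPM and then at 113, 27.6, 144 and 157 CPM, against 574, 515 and 519 CPM in vehicle animals (edgeR adjusted p 0.321). TP16 had the lowest IGFBP3 of the 7. Among 20 BMP and TGF-beta genes, GDF10, a ligand of that family (9:41817236-41830563), rose alone, from 3.10, 1.91 and 3.01 CPM to 5.71, 6.73, 8.05 and 10.9 CPM (log2 fold change 1.55 ± 0.28, edgeR adjusted p 0.0296).

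Spermatogonial genes gave no calls between 48 and 96 h. Of 22 genes of undifferentiated spermatogonia 0 passed (median log2 fold change -0.12), of 18 genes of differentiating spermatogonia 0 (median -0.12), of 25 meiotic genes 0 (median -0.26) and of 24 pan germ cell genes 0 (median -0.37). GFRA1, which binds GDNF on spermatogonia that have not yet committed (9:111969717-112194495), was at 14.1, 21.6 and 15.7 CPM at 48 h and at 35.6, 18.9, 26.5 and 25.8 CPM at 96 h, beside 44.4, 60.0 and 59.5 CPM in vehicle animals. TP16 lay below TP10, so the groups overlapped, and the log2 fold change was 0.64 ± 0.22 (edgeR adjusted p 0.157). ZBTB16, a repressor that maintains these cells, was at 19.1, 19.2 and 19.4 CPM and then at 33.8, 14.1, 42.0 and 37.5 CPM, with TP16 below all 48 h animals (edgeR adjusted p 0.358). KIT, the receptor gained when spermatogonia differentiate, was at 15.9, 17.9 and 22.4 CPM and then at 14.9, 16.5, 11.6 and 17.5 CPM (log2 fold change -0.31 ± 0.22, edgeR adjusted p 0.427). SOHLH1, a transcription factor of that step, was at 25.9, 13.7 and 21.6 CPM and then at 12.3, 12.3, 9.92 and 16.6 CPM (edgeR adjusted p 0.147), where TP18 lay above TP10. KIT and SOHLH1 overlapped between the groups. At an unadjusted p under 0.05, edgeR had 6 of the 22 undifferentiated, 3 of the 18 differentiating, 2 of the 25 meiotic and 7 of the 24 pan germ cell genes. DESeq2 called 4 genes of these lists, FGFR3 and UCHL1 lower and UHRF1 and MND1 higher. FGFR3, a growth factor receptor of undifferentiated spermatogonia, was at 33.7, 27.5 and 28.0 CPM at 48 h and at 19.5, 23.2, 15.4 and 22.5 CPM at 96 h (edgeR adjusted p 0.113). UHRF1, which carries DNA methylation through replication and is made in dividing cells at large, was at 32.9, 26.8 and 34.3 CPM and then at 42.3, 47.6, 46.6 and 45.5 CPM (edgeR adjusted p 0.0889). Neither gene overlapped between the groups. STRA8 and GDNF are not analysed here.

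The pan germ cell list summed to 1055, 731 and 1027 CPM at 48 h and to 638.3, 758.7, 536.8 and 916.5 CPM at 96 h, with TP16 and TP18 above TP10. Vehicle animals had 1363, 1044 and 1297 CPM. DDX4, a germ cell RNA helicase, was at 58.2, 41.7 and 59.6 CPM and then at 36.1, 45.3, 31.4 and 52.6 CPM (edgeR adjusted p 0.272). The estimate was above 0 for 2 of the 24 genes, and in 14-month animals alone the list's median was -0.08. These sums overlapped while those of the mitotic list did not, and their part in the mitotic result was not tested.

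Sertoli cell genes gave no calls in edgeR (0 of 24 measured, 10 with an unadjusted p under 0.05, median log2 fold change -0.07), while DESeq2 called 4 lower, INHA, INHBB, KRT18 and BEX1. FSHR, the FSH receptor, was at 54.6, 42.8 and 52.8 CPM at 48 h and at 44.2, 74.2, 59.6 and 79.0 CPM at 96 h, and AMH, the hormone of immature Sertoli cells, was at 806, 697 and 848 CPM and then at 948, 865, 715 and 1004 CPM. Both genes overlapped, with edgeR adjusted p-values of 0.298 and 0.572. KITLG, the ligand of KIT, was at 66.6, 74.9 and 83.5 CPM and then at 76.5, 82.7, 114 and 72.8 CPM (edgeR adjusted p 0.471). The 27 genes of the FSH and cAMP response gave no calls in edgeR or DESeq2, with a median of -0.24 and 6 at an unadjusted p under 0.05.

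**Figure D4:**
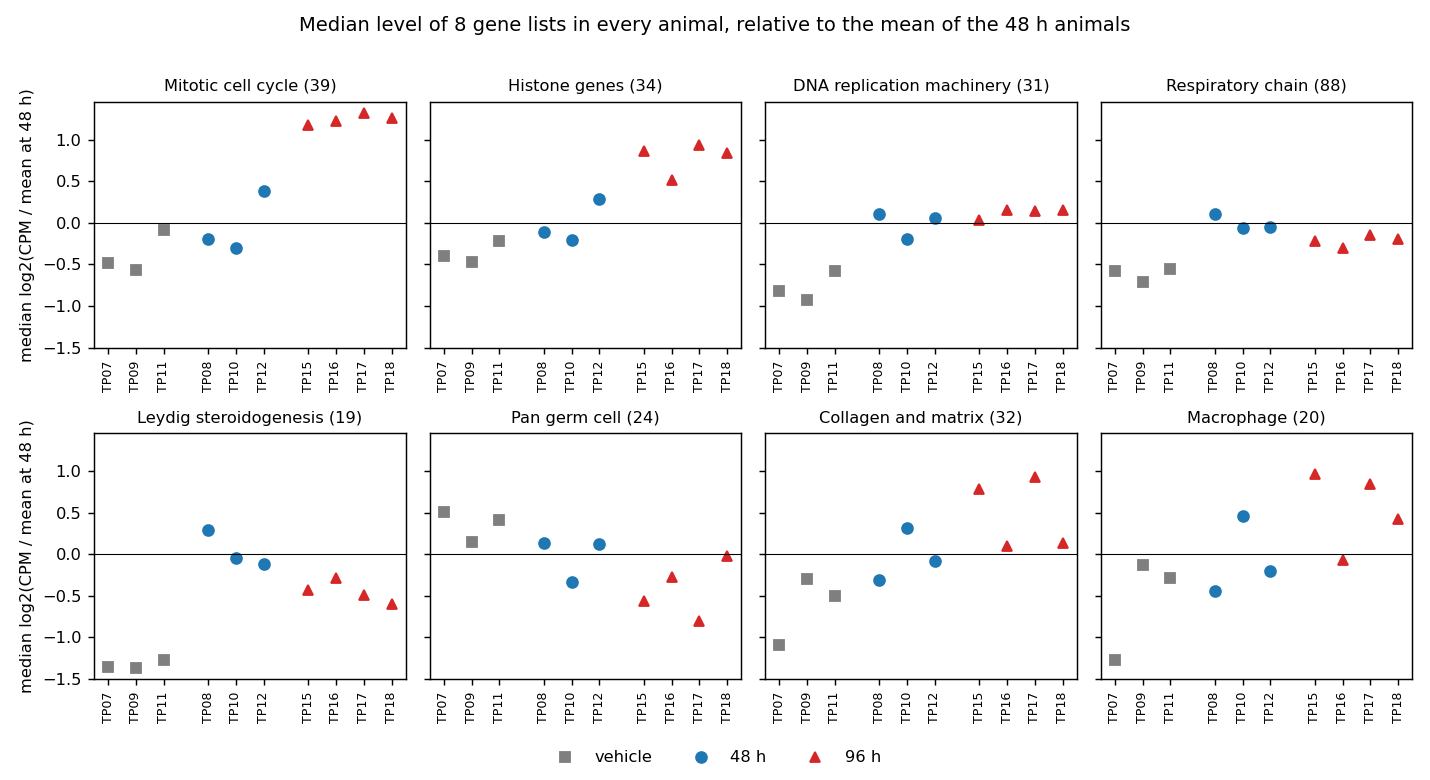
Median over the genes of 8 groups of the log2 ratio of CPM to the mean at 48 h (vertical axis), 1 point per animal, by treatment. Mitotic genes are at 1.18 to 1.32 in the 4 animals at 96 h and at -0.30 to 0.38 at 48 h, and Leydig cell genes are at -0.60 to -0.28 at 96 h.

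Estimates of collagen and macrophage genes leaned to higher values at 96 h, with TP15 and TP17 highest in both sums. Of 32 collagen and matrix genes 0 passed, while their median was 0.55 and 28 estimates were above 0. At an unadjusted p under 0.05 edgeR had 9 of them, and DESeq2 called COL3A1 and NID1. COL3A1, a fibrillar collagen, was at 1814, 2862 and 2153 CPM at 48 h and at 6174, 2913, 6273 and 3329.8 CPM at 96 h, with TP15 and TP17 high and TP16 close to TP10. Its log2 fold change was 1.04 ± 0.39 (edgeR adjusted p 0.185). The summed level of the list was 12360, 18540 and 13360 CPM and then 33520, 15320, 31410 and 16290 CPM, so TP16 and TP18 lay below TP10. Of 20 macrophage genes 0 passed in edgeR, 4 had an unadjusted p under 0.05, DESeq2 called 3 (CSF1R, F13A1 and CX3CR1), the median was 0.60 and 20 estimates were above 0. Their sums were 347.6, 564.1 and 407.5 CPM and then 862.7, 447.2, 822.4 and 631.3 CPM, beside 225.3, 471.4 and 432.1 CPM in vehicle animals. MRC1, a scavenger receptor of macrophages, was at 42.1, 52.3 and 49.97 CPM and then at 82.8, 47.4, 83.0 and 69.0 CPM (edgeR adjusted p 0.258). In 14-month animals alone the macrophage median was 0.18. Other immune lists had medians near 0, at 0.02 for 8 lymphocyte genes, -0.10 for 3 mast cell genes and -0.04 for 14 genes of interferon and inflammation. None of these passed in edgeR, where 1, 0 and 1 had an unadjusted p under 0.05, and DESeq2 called 1 lymphocyte gene (PTPRC) higher and 1 interferon or inflammation gene (CCL2) lower. Collagen and macrophage levels were high in TP15 and TP17 and the mitotic sums were high in all 4 animals at 96 h; their part in the mitotic result was not tested. ACTA2, the smooth muscle actin of peritubular cells, was at 157, 128 and 100.4 CPM and then at 110, 110, 124 and 48.6 CPM (edgeR adjusted p 0.501), and 0 of 20 peritubular genes passed (median 0.16). Estimates of the 20 ran from -1.2 to 1.05. In edgeR 6 had an unadjusted p under 0.05, and DESeq2 called 1 higher and 3 lower.

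Genes of energy supply and protein turnover had lower estimates at 96 h. Estimates also went with exonic length, with a median of -0.112 in the quintile of shortest symbols and 0.102 in the longest. With a correction for exonic length the median was -0.199 for the respiratory chain and -0.219 for the proteasome. Values below are without it unless stated. Of 88 respiratory chain genes 5 fell (NDUFS6, NDUFS7, NDUFB4, NDUFB11 and ATP5B), against 0.438% of all symbols. Of their estimates 82 were below 0, and the median log2 fold change was -0.21, against -0.02 for all symbols. NDUFS6, a subunit of complex I, was at 35.5, 31.1 and 33.1 CPM at 48 h and at 18.9, 21.4, 21.7 and 24.0 CPM at 96 h, with a log2 difference of -0.63 ± 0.11 (edgeR adjusted p 0.0289). ATP5B, the catalytic subunit of ATP synthase, was at 541, 450.2 and 457 CPM and then at 337, 358, 360.01 and 364 CPM, with a log2 difference of -0.44 ± 0.09 (edgeR adjusted p 0.0408). All animals at 96 h were below those at 48 h for both genes, and for 36 of the 88 in all (11.6% of all symbols). Vehicle animals had 15.5, 15.1 and 17.5 CPM of NDUFS6 and 327, 283 and 301 CPM of ATP5B. By complex, 4 of 38 subunits of complex I, 0 of 8 of complex III, 0 of 15 of complex IV and 1 of 15 of ATP synthase fell. None of the 88 passed when TP08, TP10, TP12, TP15 or TP17 was left out, 4 passed without TP16 and 2 without TP18, with medians of -0.25 to -0.17.

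The proteasome had a similar spread of values. Of 38 subunits 1 fell, PSMB3 of the catalytic core (0.438% of all symbols fell), and 35 estimates were below 0. The libraries did not overlap for 22 with 96 h lower (11.6% of all symbols). PSMB3 was at 68.2, 56.0 and 52.8 CPM and then at 39.5, 36.7, 43.9 and 39.8 CPM, a log2 difference of -0.56 ± 0.11 (edgeR adjusted p 0.0346). Summed over the list, levels were 3340, 2940 and 2953 CPM and then 2514, 2544, 2706 and 2581 CPM, beside 2134, 1922 and 2130 CPM in vehicle animals, and DESeq2 called 15 subunits lower and 1 higher. PSMB8, a subunit of the immunoproteasome, was the higher one, at 5.06, 8.87 and 8.80 CPM and then at 18.8, 9.59, 12.8 and 13.8 CPM, without overlap (log2 fold change 0.86 ± 0.28, edgeR adjusted p 0.1402). PSMB9, another such subunit, was at 0.68 on the log2 scale (edgeR adjusted p 0.165) with overlapping groups. Of 17 aminoacyl tRNA synthetases 1 fell, VARS (log2 fold change -0.55 ± 0.10, edgeR adjusted p 0.0314), and 0 of 17 estimates were above 0. The 79 cytosolic ribosome genes gave no calls and had a median of 0.00. Of 68 mitochondrial ribosome genes 1 rose, MRPL24, at 32.6, 40.3 and 35.8 CPM and then at 57.3, 59.3, 63.2 and 49.7 CPM (log2 fold change 0.66 ± 0.12, edgeR adjusted p 0.0315), and the list's median was -0.17. The other way, 61 of the 68 estimates were below 0. With the correction for exonic length 0 of the 68 passed. The libraries did not overlap for 19 with 96 h lower (11.6% of all symbols) and for 1 with 96 h higher. DESeq2 called 8 lower and 1 higher. Ribosome biogenesis gave 0 of 19 calls with a median of -0.26, and glycolysis 0 of 21 with -0.29. The libraries did not overlap for 14 of the 19 and 8 of the 21, all with 96 h lower (11.6% of all symbols). In glycolysis 10 genes had an unadjusted p under 0.05 in edgeR, and DESeq2 called 5 lower.

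The largest falls among single genes came from varied families. SLC35F2, a transporter of the solute carrier family (14:100714849-100799417), was at 31.7, 38.8 and 39.9 CPM at 48 h and at 12.7, 13.6, 12.5 and 16.5 CPM at 96 h, beside 20.8, 19.7 and 19.1 CPM in vehicle animals. All animals at 96 h were below all 6 others, and the log2 fold change was -1.41 ± 0.13 (edgeR adjusted p 0.00364). SLC35F2 passed in 23 of the 24 alternative settings. The setting in which it did not was that of 14-month animals only, with TP10 alone at 48 h. As the settings refit the same animals, this tally is no separate support. TINAGL1, a matricellular protein, was at 123, 132 and 102 CPM and then at 46.7, 62.4, 41.2 and 65.6 CPM (log2 fold change -1.14 ± 0.19, edgeR adjusted p 0.0261). ANXA3, a membrane-binding annexin, was at 36.7, 38.3 and 36.5 CPM and then at 20.2, 18.96, 18.7 and 13.3 CPM (log2 fold change -1.06 ± 0.17, edgeR adjusted p 0.0211), with vehicle animals at 57.9, 42.0 and 36.6 CPM. DMKN (-1.32), CHGB (-1.24), LBH (-1.08), COL9A2 (-1.07) and RRP7A (-1.03) were others of the 10 largest, each called and without overlap.

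Outside the groups examined, and picked after their values were seen, SDC4, a cell surface proteoglycan, was at 76.4, 79.5 and 66.3 CPM at 48 h and at 42.1, 46.0, 38.8 and 45.2 CPM at 96 h (log2 fold change -0.78 ± 0.12, edgeR adjusted p 0.0157). TYRO3, a receptor tyrosine kinase of Sertoli cells, was at 119, 111 and 128 CPM and then at 68.4, 82.8, 69.8 and 77.3 CPM (log2 fold change -0.68 ± 0.10, edgeR adjusted p 0.0157). KRT8, a keratin of simple epithelia, fell by 0.80 on the log2 scale. Of 12 tubulins examined 1 fell, TUBA1A, by 0.83. PDCD11, FTSJ3, NHP2 and RCL1 fell by 0.44, 0.56, 0.55 and 0.43. The 2 lowest fold changes of all symbols did not pass. CHRNA6, a nicotinic receptor subunit, was at 29.8, 1.73 and 32.0 CPM at 48 h and at 1.79, 1.56, 1.37 and 1.29 CPM at 96 h (log2 fold change -3.82 ± 0.76, edgeR adjusted p 0.0524). TP10, aged 14 months, lay among the 96 h animals, while TP12, aged 15 months, had the highest value. A part of age in this was not tested. SPP1, a secreted phosphoprotein, was at 24.7, 28.9 and 14.9 CPM and then at 4.02, 0.687, 2.99 and 2.35 CPM, without overlap but with an edgeR adjusted p of 0.0983.

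ANKRD30A, a gene of an ankyrin repeat protein (9:36957798-37106862), had the largest fold change of the 14151 symbols. It had 1, 1 and 2 counts in TP08, TP10 and TP12 and 114, 104, 76 and 217 counts in TP15 to TP18, while vehicle animals had 479, 296 and 345 counts. In CPM this was 0.0337, 0.0361 and 0.0647 at 48 h, 5.52, 3.76, 3.85 and 8.50 at 96 h, and 15.8, 11.8 and 11.1 in vehicle animals, so the 3 groups did not overlap and the 48 h animals were lowest. Over pooled counts the ratio of 96 h to 48 h per total was 116, with a 95% exact interval of 44.9 to 426 that covers counting error only. The fitted log2 fold change was 6.76 ± 0.48 (edgeR adjusted p 0.000594), and its size depends on the prior count because the 48 h libraries held so few reads.

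A run of loci without a gene symbol on chromosome 2 also rose. On the plus strand of chromosome 2, 23 such loci lie between 26830327 and 27222934 (rheMac8), with gaps of at most 100 kb. All 23 estimates were above 0, with a median log2 fold change of 1.33 (0.39 to 2.07). Of the 23, 7 passed (0.817% of all loci did so with 96 h higher). The libraries did not overlap for 21 (7.93% of all loci with 96 h higher). Summed CPM was 30.4, 34.4 and 23.5 in TP08, TP10 and TP12, 65.7, 65.2, 76.7 and 74.2 in TP15 to TP18 and 82.8, 79.0 and 77.3 in vehicle animals. The 48 h animals were the lowest of all 10.

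The 3 called loci without any annotated name that have the smallest p all lie in this run, XLOC_005805 (2:27045246-27060719), XLOC_005821 and XLOC_005798. XLOC_005805 was at 3.74, 3.25 and 1.91 CPM at 48 h, at 9.49, 7.74, 10.2 and 9.25 CPM at 96 h and at 9.38, 10.0 and 9.50 CPM in vehicle animals, a log2 fold change of 1.63 ± 0.23 between the gonadotropin groups (edgeR adjusted p 0.0157). The long noncoding RNA locus LOC106996755 (2:26864559-27040601) holds XLOC_005798 and other loci of the run within its limits. It was at 8.09, 8.66 and 7.02 CPM, then at 17.6, 16.8, 21.0 and 21.1 CPM, and at 22.0, 21.1 and 19.8 CPM in vehicle animals. Its log2 fold change was 1.27 ± 0.14 (edgeR adjusted p 0.00931). In XLOC_005805 and LOC106996755 the 96 h and vehicle ranges overlapped, and both ranges lay above the 48 h range. The region was picked after its values were seen. It was the only run of loci without a symbol with 3 or more calls, and as its loci share a strand and a neighbourhood they may be parts of 1 transcript and are not independent. The nearest gene upstream, CBLB, lies on the opposite strand.

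**Figure D5:**
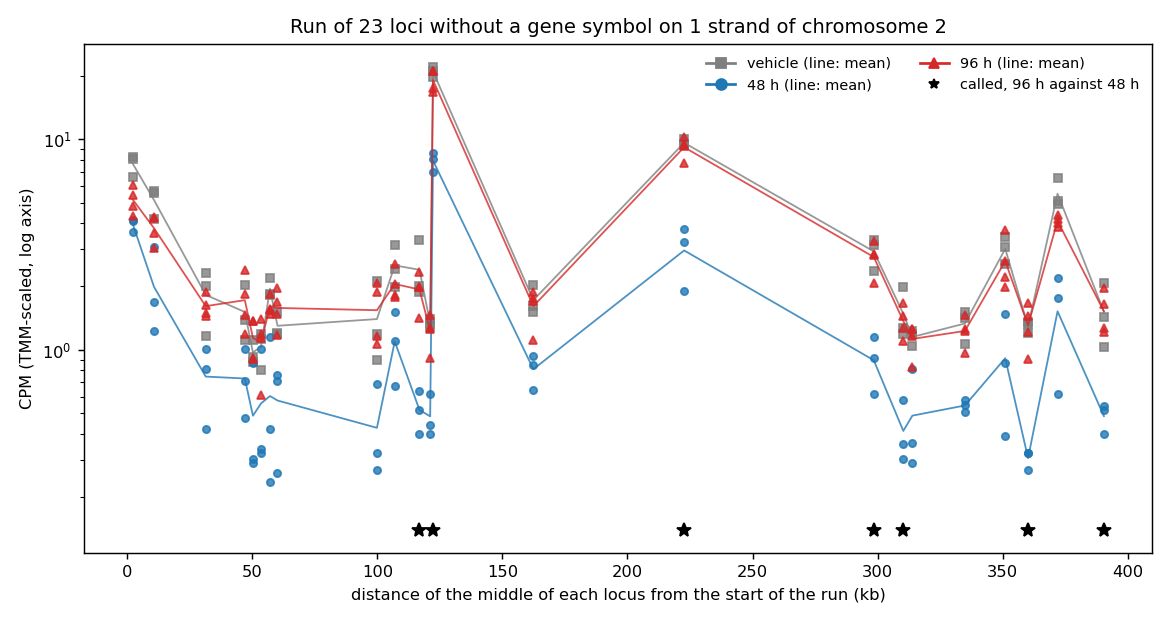
CPM (log axis) of the 23 loci without a gene symbol on 1 strand of chromosome 2, against the distance in kb of each locus from the start of the run, 1 point per animal and locus with the group mean as a line. The 48 h means run below the 96 h and vehicle means at every locus, and stars mark the 7 called loci.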

How the data were processed

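Stranded total RNA libraries of 10 testes were sequenced on an Illumina NextSeq, per the labels. Per the submitters' processing notes, the authors worked on rheMac8 with HTSeq 0.6.1p1, Cufflinks 2.2.1, Bowtie2 2.2.8, TopHat2 2.1.1, cutadapt 1.9.1 and edgeR. The authors deposited raw counts and CPM per locus for 26813 loci, each at 1 CPM or more in at least 3 libraries. The deposited CPM equals count over total, and the CPM printed here is rescaled by TMM factors. The authors' p-values and log2 values were not used, and the second deposited CPM table served only for symbols.

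Counts of all 10 libraries were fitted with group means in edgeR 4.0.16 (R 4.3.3, TMM, robust quasi-likelihood, 7 residual degrees of freedom), contrast 96 h minus 48 h, with Benjamini-Hochberg adjustment over all loci at 0.05. "Called", "passed", "rose" and "fell" mean this threshold. On simulated data with 200 changed loci of 26813 for this contrast, 82.2% of 4-fold and 40.4% of 2-fold changes were recovered with 9 false calls. The members and the 44 gene lists were chosen with earlier results of these data known. Genes named are fixed genes, the 10 largest called rises and the 10 largest called falls (no overlap, mean log2 CPM of 1 or more), up to 4 called members of a list by p (or the 2 highest-level ones where none was called), and 3 unnamed loci. Where a symbol has several loci, the one with the highest mean stands for it. Not every gene of the rule is printed, and some named by it are not reported here. Symbols came from the count table (14383 loci), a RefSeq gene table of another build (330, by gene ID) and the second table (151). Alternatives were DESeq2 1.42.0, limma 3.58.1 with voom, edgeR's exact test, other scalings, filters and thresholds, age, and leaving out each library. A correction for exonic length was added after seeing the data.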

Additional observations from a re-analysis of the deposited data

Results flagged for a closer look

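In groups of 4 animals, a value was marked where its gap to the nearest other animal, divided by the group's range, passed Dixon's 95% critical value. Of 47 called genes tested at 96 h 3 were marked, and chance marks about 1 in 20 groups. ANLN was at 124 CPM in TP17 against 109 to 110 in the other 3. LBH was at 31.8 CPM in TP15 against 24.5 to 25.8. PAPPA was at 40.2 CPM in TP15 against 45.8 to 46.7.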

How the results depend on the processing

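All 286 called loci kept their sign in each of the alternatives in which they were measured (275 of 275 with at least 50 counts in 3 libraries, and 241 of 241 when loci of 1 symbol were summed). The called symbols were all without overlap between the groups, which leaves little room for a reversed sign, so kept signs are no separate support. The number of calls did move. Called loci, with those higher and lower at 96 h, were 1827, 1073 and 754 in DESeq2, 888, 599 and 289 with edgeR's exact test, 178, 144 and 34 with the 7 gonadotropin libraries alone, 95, 76 and 19 with age as a covariate, 3, 2 and 1 without both animals over 20 months, and 8, 8 and 0 in 14-month animals only (1 animal at 48 h, assumed to vary like the other groups). At an adjusted p of 0.01 they were 5, 4 and 1, at 0.10 they were 966, 597 and 369, and against a log2 fold change of 0.5 (glmTreat) they were 2, 1 and 1. Summing loci of 1 symbol gave 494 calls, 303 higher and 191 lower, and library totals without a scaling factor gave 114 lower. Leaving out 1 animal at a time gave 2 to 373 calls, 1 to 272 higher and 1 to 101 lower. ANKRD30A and SLC35F2 were the calls left without TP08 and under glmTreat. The remaining scalings, filters, voom and the length correction gave between 240 and 339 calls. Of 1128 alternative results of the 47 called named genes, 689 stayed past the threshold, 439 did not and 0 reversed, with the same limit on signs. No paired analysis was possible because the labels give no replicate numbers or shared sources. With 3 and 4 animals, and 40.4% of 2-fold changes recovered in simulation, a gene that did not pass may still differ.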
